A study of Homo sapiens with 12 samples.

Results

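The genes that encode collagen chains were examined in U2OS cells expressing E2F1. The members were every gene row whose symbol is COL, a number, A and a number, which gave 44 of 25369 genes. The set was chosen by the measured level of COL3A1, which was much lower in the E2F1 lines than in the control line. COL3A1 against the control is therefore given as a description, with no test, and is left out of the counts of those comparisons. Of the 44 genes, 34 passed the filter on low counts. The other 10 (COL1A2, COL6A5, COL9A1, COL9A3, COL10A1, COL14A1, COL21A1, COL23A1, COL25A1 and COL28A1) had at most 19 reads in any sample and were not tested.

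Collagens are secreted or membrane proteins built from chains that wind around each other into a triple helix. Fibrillar collagens (types I, II, III, V, XI and relatives) form the banded fibers of bone, skin and cartilage, type IV forms the sheet of basement membranes, and type VI forms beaded filaments. FACIT collagens decorate fibrils, transmembrane collagens span the cell surface, and multiplexins (types XV and XVIII) lie at basement membranes. Type I collagen is the main organic component of bone matrix, and is normally made of chains from COL1A1 and COL1A2 together.

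The study compared 4 stable lines made from U2OS, a human osteosarcoma cell line that carries the Tet-On system, so that doxycycline switches on the introduced gene. The pTRE line carried the vector alone, and the other 3 lines carried HA-tagged E2F1 as the wild-type protein (WT), with 1 arginine changed to lysine (R109K), or with arginines 111 and 113 both changed to lysine (KK). E2F1 is a transcription factor of the cell cycle. The arginine lost in R109K is the one that PRMT1 methylates asymmetrically, and arginines 111 and 113 are those that PRMT5 methylates symmetrically. All 4 lines, pTRE included, received doxycycline at 1 μg/ml for 24 hours. Every line also kept its own E2F1 gene, and whether a line is 1 clone is not stated, so that a difference between lines and an effect of the introduced protein cannot be told apart. Poly(A) mRNA was sequenced in 3 biological replicates of each line (12 samples).

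Reads assigned to genes ranged from 11500537 in WT replicate 2 to 31040903 in R109K replicate 1. WT replicate 2 stood apart, with 58.7% of its reads outside annotated genes against 23.6% to 29.6% in the others, and is named below beside the calls that turned on it. E2F1 itself lay between 82.9 and 101 counts per 1000000 reads (CPM) in pTRE and between 932 and 2315 CPM in the E2F1 lines. Of the markers that define the osteoblast lineage, RUNX2 (7.78 to 18.8 CPM) and SPARC (457 to 1787 CPM) were present, whereas SP7, IBSP and BGLAP were at 0 in some samples and at most at 0.241 CPM. The 6 epithelial markers summed to between 745 and 919 CPM in the pTRE samples and to between 365 and 659 CPM in the E2F1 samples (365 to 585 for WT, 521 to 610 for R109K, 468 to 659 for KK), with KRT19 and KRT5 at 0 in some samples. The 8 osteoblast lineage markers summed to between 1424 and 1826 CPM in pTRE, and to 502 to 814 in WT, 828 to 904 in R109K and 750 to 811 in KK. Most of this sum was SPARC, so it mainly follows that gene, which is also on the list of collagen pathway genes below. The 4 mesenchymal markers summed to between 2046 and 2251 CPM in pTRE, and to 1584 to 1819 in WT, 1971 to 2104 in R109K and 1734 to 2017 in KK, with TWIST1 at 0 in some samples. The 4 chondrocyte markers summed to between 107 and 125 CPM in pTRE, and to 134 to 171 in WT, 130 to 159 in R109K and 145 to 177 in KK, with COMP at 0 in some samples. The 3 endothelial markers summed to 2.24 to 2.89 CPM in pTRE and at most 1.48 CPM in the E2F1 samples, and the 3 blood markers to at most 0.735 CPM in pTRE and 0.737 to 1.61 CPM in the E2F1 samples. By the call rule given below, SPARC was lower in WT and KK, SPP1 and VWF were lower and ACAN higher in each line, BMP2 was higher in WT and KK, KRT8 was lower and CD14 higher in WT, and KRT5 and CDH2 were lower in KK. The part of these marker levels in the collagen results was not tested.

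Collagen transcripts as a whole were lower in every E2F1 sample than in any pTRE sample. Their summed level was 6151, 6369 and 7796 CPM in pTRE and ran from 2525 to 3242 CPM in the 9 E2F1 samples. As a share of reads on genes this was 0.668% ± 0.0785 in pTRE, 0.300% ± 0.0316 in WT, 0.291% ± 0.0395 in R109K and 0.265% ± 0.0200 in KK (mean ± SD, n = 3). Most of this difference lay in the fibrillar class, which was at 3904 to 4872 CPM in pTRE and between 732 and 1168 CPM in the E2F1 samples. These sums include COL3A1 and COL1A1 and have no test. In such bulk samples, fewer cells making a transcript and less transcript per cell cannot be told apart.

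**Figure D1:**
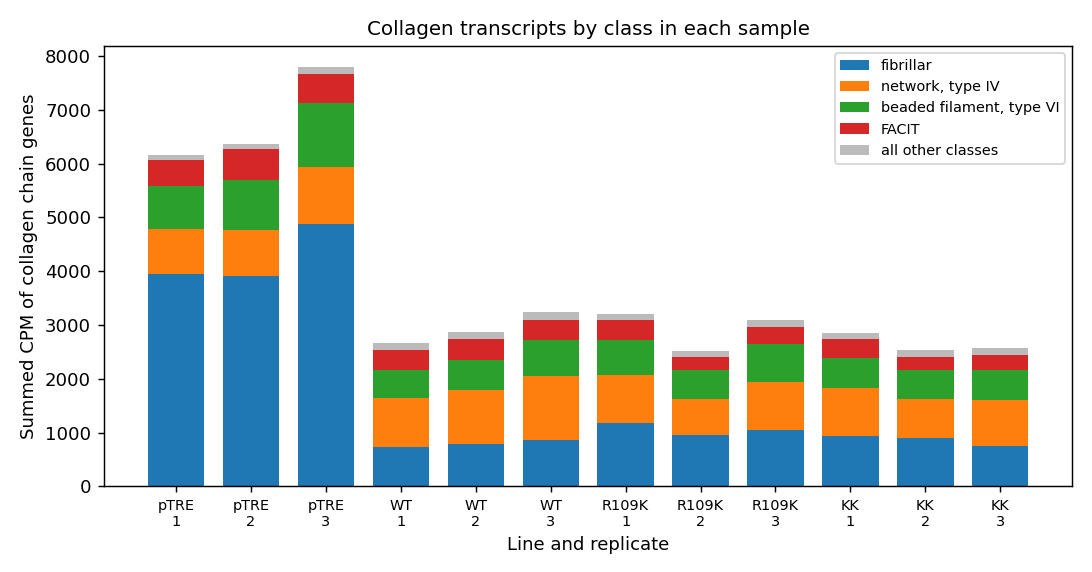
Summed CPM (y axis) of collagen chain genes in each of the 12 samples (x axis, line and replicate), stacked by class. The fibrillar block is 3904 to 4872 CPM in pTRE and at most 1168 CPM in the E2F1 samples, whereas the type IV block stays between 674 and 1188 CPM throughout.

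The make-up of the collagen reads differed as well. Fibrillar chains gave 62.7% ± 1.51 of collagen CPM in pTRE, and 27.1% ± 0.482 in WT, 36.0% ± 2.19 in R109K and 32.4% ± 3.27 in KK. Type IV chains gave 13.6% ± 0.117 in pTRE, and 35.5% ± 1.19, 27.9% ± 1.21 and 31.0% ± 2.36 in WT, R109K and KK. The ratio of type IV to fibrillar summed CPM, which is one of reads with no correction for length, was 0.209 to 0.222 in pTRE and 0.702 to 1.38 in the E2F1 samples. COL1A1 alone made up 51.5% to 53.8% of collagen CPM in pTRE and 18.8% to 31.1% in the E2F1 samples. Without COL1A1, the summed level was 3215 ± 452 CPM in pTRE, 2358 ± 257 in WT, 2101 ± 313 in R109K and 1989 ± 162 in KK.

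Levels of different chains were compared per length, as RPKM, which is CPM per kilobase of exon. In pTRE, COL1A1 led with 395 ± 50.3 RPKM, followed by COL6A2 at 70.0 ± 14.9 and COL6A1 at 55.6 ± 11.6, which overlap within their SDs. COL4A2 (31.3 ± 5.38), COL5A1 (30.7 ± 7.05) and COL12A1 (24.7 ± 2.94) came next and were also not separable. COL4A1 (19.7 ± 1.37), COL5A2 (16 ± 0.890), COL6A3 (13.7 ± 2.74) and COL11A1 (13.0 ± 2.02) closed the leading 10, with COL6A3 overlapping within its SD with both COL5A2 and COL11A1, which did not overlap with each other. In WT the order per length was still headed by COL1A1, at 63.0 ± 4.25 RPKM, and COL6A2, at 54.8 ± 5.78, which overlap within their SDs. COL4A2 came next at 37.9 ± 5.69. By CPM, COL4A2 was above COL1A1 in WT, at 731 ± 110 against 567 ± 38.2. The length used is the union of all annotated exons, 9007 bases for COL1A1, 5334 for COL6A2 and 19271 for COL4A2. The order between chains thus depends on that length, which may exceed that of the transcript expressed.

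Each E2F1 line was compared with pTRE to ask which transcripts change when E2F1 or a mutant that cannot be methylated at one kind of site is induced. A gene was called at an adjusted p under 0.01 and a change over 2-fold, in edgeR's quasi-likelihood test with Benjamini-Hochberg adjustment over 16625 genes. In WT, 12 of 33 collagen genes were called, where 11.8% of all tested genes were. Of these, 8 were lower (3.93% of all genes) and 4 higher (7.89% of all genes). In R109K, 8 of 33 were called (7.19% of all genes), 7 lower (2.56%) and 1 higher (4.64%). In KK, 14 of 33 were called (10.9% of all genes), 11 lower (3.90%) and 3 higher (7.01%). With the change tested against 2-fold itself (edgeR's glmTreat), 5, 4 and 5 of 33 passed in WT, R109K and KK, where 3.56%, 1.87% and 3.41% of all genes did.

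The median log2 fold change over the 33 genes was -0.35 in WT, -0.60 in R109K and -0.75 in KK, against 0.00, 0.00 and -0.01 over all tested genes. At an adjusted p under 0.01 with no demand on size, 16 collagen genes passed in each comparison, where 26.2%, 17.3% and 24.4% of all genes did in WT, R109K and KK. The 3 comparisons share the pTRE samples, so they are not independent of each other, and the values are given side by side. The members were chosen with results of these samples known.

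**Figure D2:**
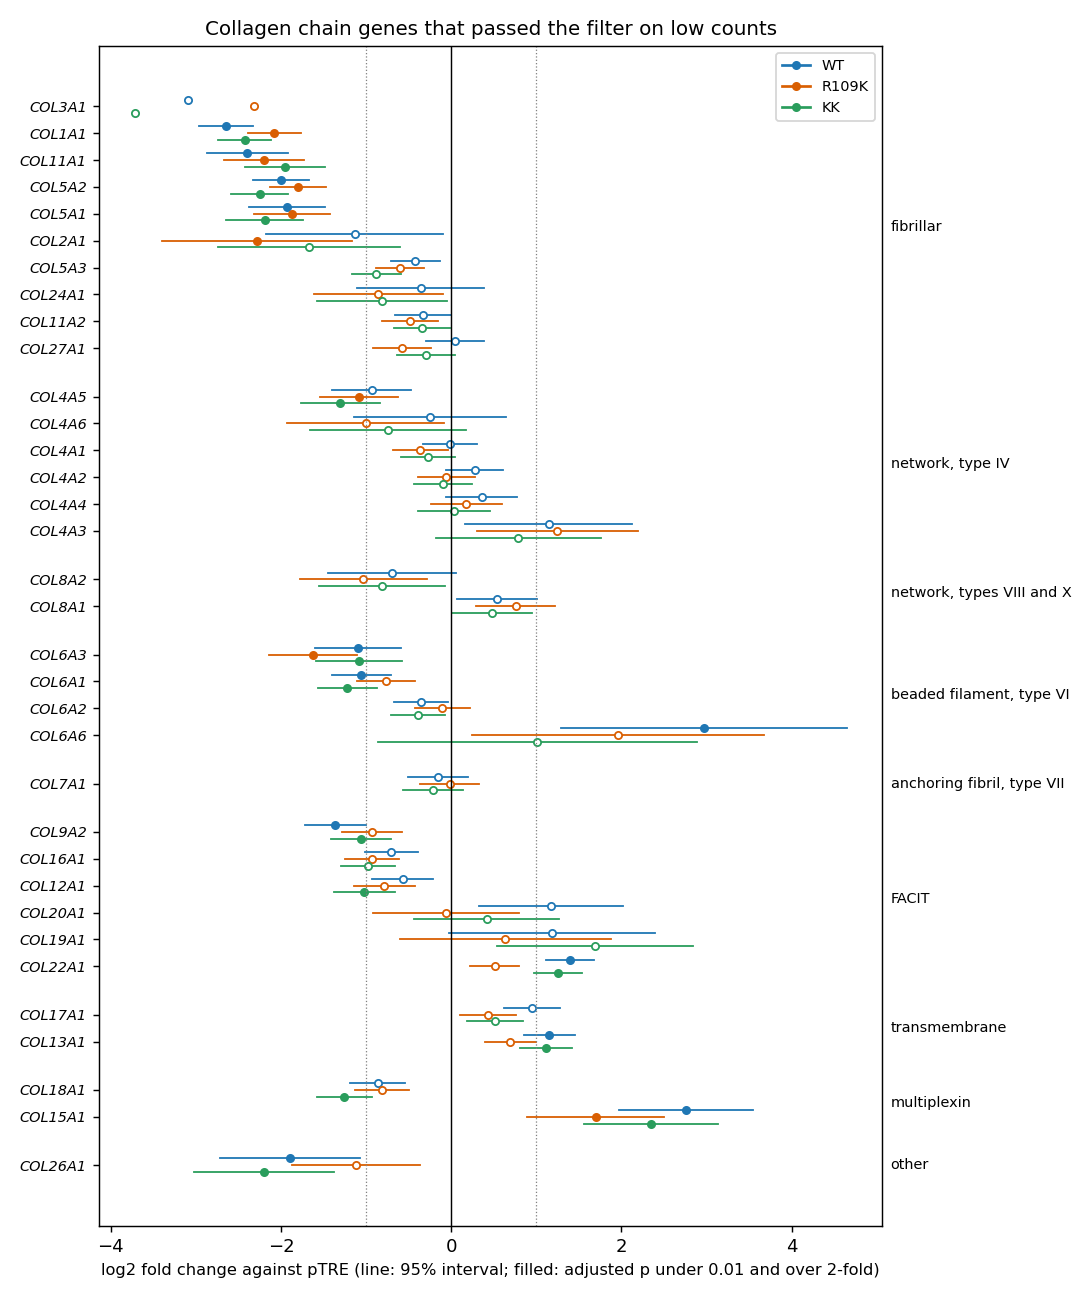
Log2 fold change against pTRE (x axis) of the 34 collagen genes that passed the filter (y axis, by class) in WT, R109K and KK, with 95% intervals; filled points were called and dotted lines mark 2-fold. COL3A1 is drawn without interval or test. COL1A1, COL5A1, COL5A2 and COL11A1 lie between -2.65 and -1.80 in every line, whereas COL4A1 and COL4A2 lie between -0.36 and 0.28.

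COL1A1, which encodes the α1 chain of type I collagen, had the most reads of any member over the 12 samples together and in each pTRE sample, whereas COL4A2 had more in all 3 WT samples and in KK replicate 3. Its level was 3312, 3280 and 4079 CPM in pTRE and 541, 550 and 611 CPM in WT. It was 931, 786 and 810 CPM in R109K and 723, 721 and 543 CPM in KK. All 9 E2F1 samples lay below all pTRE samples, by 6.27-fold in WT, 4.22-fold in R109K and 5.37-fold in KK. The log2 fold changes were -2.65 (SE 0.15, adjusted p = 8.6e-09), -2.08 (SE 0.14, adjusted p = 1.5e-07) and -2.43 (SE 0.15, adjusted p = 1.8e-08). COL1A1 lies on the minus strand of chromosome 17 (GRCh37 chr17:48261462-48278993).

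COL1A2, the partner chain of COL1A1 in type I collagen, was almost undetected. It had 50 reads over the 12 samples, between 0 and 16 in each, where COL1A1 had 436260. Even in pTRE, with 5, 2 and 16 reads, COL1A2 stood at no more than 0.588 CPM. The ratio of the 2 chains rests on these few reads and its difference from pTRE, -1.48, -1.03 and -1.81 on the log2 scale in WT, R109K and KK, did not pass (exact permutation p = 0.2, 0.3 and 0.1). With 3 samples against 3, the smallest p this test can give is 0.1.

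COL3A1, the single chain of type III collagen, was the gene that led to the set. Its level was 29.7, 27.1 and 15.8 CPM in pTRE, with replicate 3 lower than the others. It was 3.31, 2.17 and 2.78 CPM in WT, 6.45, 5.16 and 2.78 CPM in R109K, and 2.53, 1.44 and 1.46 CPM in KK. The log2 fold changes against pTRE were -3.10, -2.32 and -3.72, from 430 to 718 reads in pTRE and 27 to 199 reads in the E2F1 samples. Per length it was a minor fibrillar transcript, at 3.58 ± 1.09 RPKM in pTRE. COL3A1 and COL5A2 are neighbours on chromosome 2 (GRCh37 chr2:189839099-189877472 and chr2:189896624-190090038), with 19151 bases between their ends, and are transcribed towards each other.

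COL5A1 and COL5A2 of type V collagen, which copolymerises with type I and limits fibril width, and COL11A1 of type XI were lower as well. COL5A1 (GRCh37 chr9:137533649-137736689) was at 294, 301 and 434 CPM in pTRE, 72.8, 90.5 and 107 in WT, 108.6, 68.4 and 105 in R109K, and 90.7, 66.9 and 68.0 in KK. The groups did not overlap with pTRE. The log2 fold changes were -1.93 (SE 0.21, adjusted p = 4.9e-06) in WT, -1.87 (SE 0.21, adjusted p = 1.1e-05) in R109K and -2.19 (SE 0.21, adjusted p = 1.5e-06) in KK.

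COL5A2, which supplies the second type V chain, was at 125, 113 and 113 CPM in pTRE. It was at 26.8, 26.3 and 34.2 in WT, 37.2, 29.9 and 33.5 in R109K, and 30.4, 20.8 and 22.3 in KK. It thus lay below pTRE in all 9 samples, with log2 fold changes of -2.0 (SE 0.15, adjusted p = 1.5e-07), -1.80 (SE 0.15, adjusted p = 7.8e-07) and -2.25 (SE 0.16, adjusted p = 5.2e-08). The COL5A1 to COL5A2 ratio of counts was 2.36 to 3.83 in pTRE and 2.29 to 3.44 in the E2F1 samples, so the ranges overlapped. Its log2 difference from pTRE was 0.09, -0.07 and 0.09 in WT, R109K and KK (exact permutation p = 0.7, 0.9 and 0.7).

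COL11A1, the α1 chain of type XI collagen, was at 122, 98.3 and 135 CPM in pTRE. It was at 18.3, 18.6 and 30.0 in WT, 25, 20.0 and 32.3 in R109K, and 30.1, 24.2 and 37.1 in KK, again with no overlap. The log2 fold changes were -2.40 (SE 0.22, adjusted p = 1.1e-06), -2.20 (SE 0.22, adjusted p = 4.0e-06) and -1.95 (SE 0.22, adjusted p = 6.5e-06). COL2A1, the cartilage chain, was called lower in R109K, at a log2 fold change of -2.28 (SE 0.52, adjusted p = 0.0041). It rests on few reads: 16, 17 and 27 in pTRE, 10, 6 and 7 in WT, 9, 3 and 1 in R109K, and 7, 3 and 8 in KK.

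The call of COL2A1 in R109K was lost, at an adjusted p of 0.011 to 0.025, without pTRE replicate 1, 2 or 3 or R109K replicate 2 or 3 in turn. Its log2 fold change then lay between -2.40 and -1.89, and without R109K replicate 1, which kept the call, it was -3.25 (adjusted p = 0.0022). In WT and KK the values were -1.14 (adjusted p = 0.076) and -1.67 (adjusted p = 0.016). The other fibrillar chains tested, COL5A3, COL11A2, COL24A1 and COL27A1, lay between -0.88 and 0.04 in the 3 lines and none was called. COL5A3 passed the adjusted p alone in R109K (-0.60, adjusted p = 0.0032) and KK (-0.88, adjusted p = 0.00012).

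**Figure D3:**
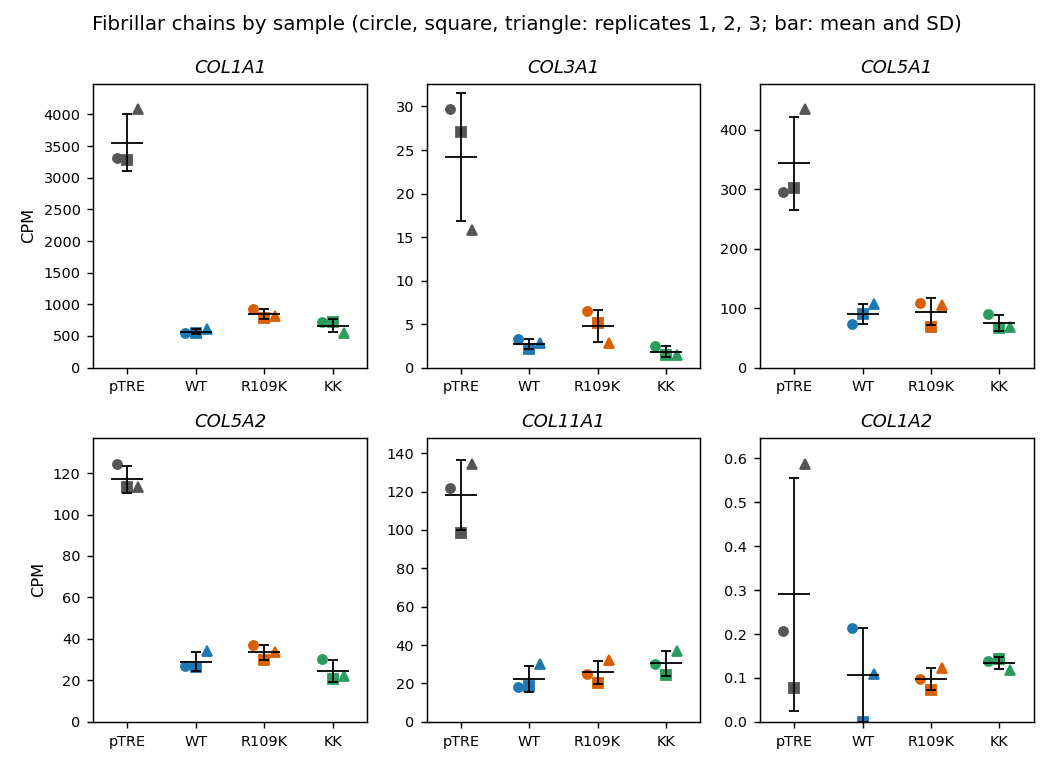
CPM (y axis, from 0) of 6 fibrillar chain genes in the 3 replicates of pTRE, WT, R109K and KK (x axis); points are samples, bars are mean and SD. For COL1A1, COL3A1, COL5A1, COL5A2 and COL11A1 every E2F1 sample lies below every pTRE sample, and COL1A2 is at most at 0.588 CPM.

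Promoter sequences were read for the members that have one in the reference used, 32 of the 44 genes and 26 of the 34 tested. The tested genes without one were COL1A1, COL2A1, COL3A1, COL5A2, COL6A1, COL8A1, COL20A1 and COL22A1. The counts of words below thus do not cover most of the fibrillar genes that were called lower. They are the 250 bases before each RefSeq transcription start (GRCh38.p14 table), placed in GRCh37 by exact match. Those of COL5A1 and COL11A1 are shown as examples of genes called lower in each line. Capitals mark the words searched on both strands, which were GGGCGG (a GC box), the CCAAT box, the word TATAAA and 4 words of the E2F site, TTTCCCGC, TTTGGCGC, TTTCGCGC and TTTGCCGC.
COL5A1 (chr9:137533399-137533648, plus strand): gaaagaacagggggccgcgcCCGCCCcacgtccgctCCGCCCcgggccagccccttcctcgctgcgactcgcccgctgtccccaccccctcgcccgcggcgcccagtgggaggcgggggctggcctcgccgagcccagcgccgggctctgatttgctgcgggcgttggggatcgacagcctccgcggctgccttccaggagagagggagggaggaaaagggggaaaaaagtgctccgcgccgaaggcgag
COL11A1 (chr1:103574079-103574328, minus strand): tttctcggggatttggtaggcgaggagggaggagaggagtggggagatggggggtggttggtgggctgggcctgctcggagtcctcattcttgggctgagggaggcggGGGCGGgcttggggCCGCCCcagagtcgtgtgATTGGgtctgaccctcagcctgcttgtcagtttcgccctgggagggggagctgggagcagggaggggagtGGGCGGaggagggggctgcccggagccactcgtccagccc
COL5A1 holds 2 GC boxes and none of the other words, and COL11A1 holds 3 GC boxes and 1 CCAAT box. Neither 250-base stretch overlaps an annotated exon, but that of COL11A1 lies within the annotated gene (GRCh37 chr1:103342023-103574428). The stretch of COL6A3, also called lower in each line and not shown, holds none of the words.

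Across the 26 tested collagen promoters, 16 (61.5%) held GGGCGG, where 42.6% of all 35116 promoters of that length did. TATAAA was in 5 (19.2%, against 10.7%) and CCAAT in 7 (26.9%, against 32.0%). The E2F words were in 0 of 26, against 2.79% of all promoters. These are letters in one window and say nothing of what binds there.

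COL4A1 and COL4A2 encode the 2 chains of the common basement membrane network, and lie head to head on chromosome 13. The annotated genes overlap at their starts on opposite strands. The strand setting of the counting is not given, so reads there may not be told apart. COL4A1 was at 274, 282 and 312 CPM in pTRE, 269, 268 and 321 in WT, 255, 187 and 232 in R109K, and 277, 194 and 247 in KK. COL4A2 was at 527, 561 and 722 CPM in pTRE, 626, 721 and 845 in WT, 624, 471 and 644 in R109K, and 589, 515 and 590 in KK. COL4A1 in R109K lay below pTRE without overlap, and the other ranges overlapped with pTRE.

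Neither gene was called in any line. The 95% interval of the log2 fold change of COL4A1 ran from -0.34 to 0.30 in WT, from -0.68 to -0.04 in R109K and from -0.59 to 0.05 in KK. That of COL4A2 ran from -0.06 to 0.61, from -0.39 to 0.28 and from -0.43 to 0.24. A change of 2-fold thus lay outside each interval. The sequence between the RefSeq starts of the pair is shown because both chains are read from it in opposite directions.
COL4A1/COL4A2 (chr13:110959505-110959630, strand of COL4A2): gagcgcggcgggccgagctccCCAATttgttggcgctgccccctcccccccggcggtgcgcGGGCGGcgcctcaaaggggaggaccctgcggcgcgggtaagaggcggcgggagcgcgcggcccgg
These 126 bases hold 1 CCAAT box and 1 GC box, in capitals, and 26 of them lie in an annotated exon of COL4A2.

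The COL4A1 to COL4A2 ratio of counts was 0.519, 0.502 and 0.432 in pTRE, 0.429, 0.372 and 0.380 in WT, 0.409, 0.396 and 0.360 in R109K, and 0.471, 0.376 and 0.419 in KK. It lay below pTRE without overlap in WT and R109K, by 0.30 and 0.32 on the log2 scale, and overlapped in KK. The exact permutation p was 0.1, 0.1 and 0.2, which adjusted over 12 ratio comparisons gave 0.2, 0.2 and 0.3. None passed, nor could any have.

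COL4A5, which encodes a chain of the network of kidney and lung basement membranes, was at 12.8, 13.5 and 13.8 CPM in pTRE, 5.09, 7.63 and 8.38 in WT, 6.09, 5.16 and 7.78 in R109K, and 5.09, 4.13 and 7.03 in KK. No E2F1 sample reached the pTRE range. It was called lower in R109K (-1.08, SE 0.21, adjusted p = 0.0015) and KK (-1.30, SE 0.22, adjusted p = 0.00026), and passed only the adjusted p in WT (-0.94, SE 0.22, adjusted p = 0.0031). Without R109K replicate 2 the value in R109K was -0.95 (adjusted p = 0.0095), under 2-fold, and without WT replicate 3 the value in WT was -1.12 (adjusted p = 0.0021), over 2-fold.

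COL4A3, COL4A4 and COL4A6 were not called, with log2 fold changes between -1.0 and 1.25. COL8A1 and COL8A2, the chains of the short-chain type VIII network, were not called either. COL8A1 was at 8.84, 8.66 and 14.2 CPM in pTRE, 12.5, 15.1 and 18.5 in WT, 15.0, 16.1 and 22.7 in R109K, and 13.0, 13.8 and 17.6 in KK. Its log2 fold changes were 0.54 (adjusted p = 0.064), 0.76 (adjusted p = 0.017) and 0.48 (adjusted p = 0.10). It passed in R109K without pTRE replicate 3 (1.03, adjusted p = 0.0043). COL8A2 was at 0.909, 1.03 and 1.18 CPM in pTRE, 0.605, 0.883 and 0.506 in WT, 0.519, 0.581 and 0.409 in R109K, and 0.692, 0.384 and 0.671 in KK.

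Type VI collagen is assembled from α1, α2 and α3 chains. COL6A1 was at 249, 298 and 376 CPM in pTRE, 125, 145 and 175 in WT, 184, 155 and 204 in R109K, and 128, 139 and 128 in KK. All E2F1 samples lay below pTRE, and the gene was called in WT (-1.06, SE 0.16, adjusted p = 0.00012) and KK (-1.22, SE 0.16, adjusted p = 3.3e-05). In R109K the log2 fold change was -0.77 (SE 0.16, adjusted p = 0.0023), under 2-fold. The WT value was under 2-fold without pTRE replicate 3 (-0.89) or WT replicate 1 (-0.96).

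COL6A2, the next gene on chromosome 21, 93061 bases from COL6A1 and on the same strand, was at 327, 328 and 465 CPM in pTRE. It was at 283, 267 and 327 in WT, 361, 305 and 377 in R109K, and 282, 310 and 265 in KK. The WT and KK samples lay below pTRE, WT replicate 3 only just, and the R109K samples overlapped with it. The gene was not called, with 95% intervals of -0.67 to -0.03, -0.42 to 0.22 and -0.71 to -0.07 on the log2 scale in WT, R109K and KK.

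The ratio of COL6A1 to COL6A2 counts was 0.762, 0.907 and 0.809 in pTRE, 0.442, 0.541 and 0.534 in WT, 0.510, 0.507 and 0.541 in R109K, and 0.455, 0.449 and 0.482 in KK. No E2F1 sample reached the pTRE range. The log2 difference from pTRE was -0.71 in WT, -0.67 in R109K and -0.84 in KK, each with an exact permutation p of 0.1 (0.2 adjusted over 12 comparisons), the smallest that 3 samples against 3 allow. No ratio comparison could have passed.

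COL6A3, the large α3 chain, was at 235, 298 and 353 CPM in pTRE, 107, 138 and 169 in WT, 101, 65.7 and 121 in R109K, and 156, 99.5 and 163 in KK. It was called lower in WT (-1.10, SE 0.24, adjusted p = 0.0020), R109K (-1.62, SE 0.24, adjusted p = 0.00015) and KK (-1.08, SE 0.24, adjusted p = 0.0022). The WT and KK calls each depended on single libraries. The WT call was lost without pTRE replicate 3 (-0.95, adjusted p = 0.014) or WT replicate 1 (-0.95, adjusted p = 0.011), and the KK call without pTRE replicate 3 (-0.93, adjusted p = 0.016) or KK replicate 2 (-0.89, adjusted p = 0.010).

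COL6A6, an alternative type VI chain, was called higher in WT (2.97, SE 0.79, adjusted p = 0.0075), but one library decided this. It had 5, 3 and 2 reads in pTRE and 15, 33 and 9 in WT, of which the 33 came from WT replicate 2, the library with the most reads outside genes. Without that library the log2 fold change was 1.70 (adjusted p = 0.042), and it was lost too without pTRE replicate 1, 2 or 3 (3.43, 2.90 and 2.69, adjusted p = 0.017 to 0.039). In R109K, with 21, 6 and 16 reads, and in KK, with 9, 6 and 5, it was not called.

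COL7A1, the anchoring fibril chain of type VII collagen, was at 29.7, 28.6 and 44.7 CPM in pTRE, 27.4, 30.9 and 34.2 in WT, 36.2, 28.6 and 36.9 in R109K, and 27.6, 31.2 and 30.3 in KK. It was not called, and its log2 fold changes of -0.16, -0.02 and -0.21 were smaller than the spread of pTRE, whose replicate 3 was the highest of all samples. The 95% intervals reached from -0.56 to 0.33 over the 3 lines.

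Among the FACIT chains, members moved in both directions. COL12A1, a long chain found on type I fibrils, was at 411, 521 and 463 CPM in pTRE, 304, 327 and 308 in WT, 326, 210 and 273 in R109K, and 272, 184 and 232 in KK. It was lower without overlap in every line, but was called in KK alone (-1.02, SE 0.17, adjusted p = 0.00023), with -0.57 (adjusted p = 0.014) in WT and -0.79 (adjusted p = 0.0025) in R109K. The KK value was under 2-fold without pTRE replicate 2 (-0.93) or KK replicate 2 (-0.88), and KK was not shown to differ from the other lines.

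COL9A2, a chain of the cartilage type IX collagen, was at 20.0, 18.4 and 26.0 CPM in pTRE, 7.23, 7.55 and 10.2 in WT, 11.3, 10.0 and 12.4 in R109K, and 10.2, 11.1 and 9.55 in KK. It was called in WT (-1.36, SE 0.17, adjusted p = 1.6e-05) and KK (-1.06, SE 0.17, adjusted p = 0.00014), and was at -0.93 (SE 0.16, adjusted p = 0.00056) in R109K. The KK value was -0.90 without pTRE replicate 3. In R109K it passed 2-fold without pTRE replicate 2 (-1.04) or R109K replicate 3 (-1.01). COL16A1 lay between -0.97 and -0.70 in the 3 lines with adjusted p from 0.00011 to 0.0016, under 2-fold.

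COL22A1, a FACIT chain of tissue junctions, was higher. It was at 13.0, 14.8 and 18 CPM in pTRE, 41.5, 38.9 and 40.3 in WT, 21.5, 20.9 and 22.9 in R109K, and 41.9, 33.6 and 34.1 in KK. No group overlapped with pTRE, and R109K lay between pTRE and the other 2 lines without overlap. The log2 fold changes were 1.39 (SE 0.13, adjusted p = 1.5e-06) in WT, 0.51 (SE 0.13, adjusted p = 0.0099) in R109K and 1.26 (SE 0.13, adjusted p = 3.8e-06) in KK. COL19A1, at most 0.692 CPM, and COL20A1, at 8.03 CPM in WT replicate 2 and at most 3.60 CPM in every other sample, were not called.

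The transmembrane chain COL13A1 (chr10:71561636-71724031), found at cell adhesions, was at 21.3, 21.8 and 30.7 CPM in pTRE. It was at 55.6, 47.1 and 61.4 in WT, 40.1, 39.0 and 40.2 in R109K, and 50.9, 53.8 and 55.3 in KK. All E2F1 samples lay above pTRE, and it was called in WT (1.15, SE 0.14, adjusted p = 1.5e-05) and KK (1.11, SE 0.14, adjusted p = 2.2e-05), with 0.69 (SE 0.14, adjusted p = 0.0018) in R109K.

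The 250 bases before its RefSeq start are shown as those of a gene that was higher. They hold 1 TATAAA word, in capitals, and none of the other words, and the last 26 bases are in an annotated exon of another COL13A1 transcript. The stretch of COL15A1, called higher in each line and not shown, holds 1 GC box and none of the other words.
COL13A1 (chr10:71561412-71561661, plus strand): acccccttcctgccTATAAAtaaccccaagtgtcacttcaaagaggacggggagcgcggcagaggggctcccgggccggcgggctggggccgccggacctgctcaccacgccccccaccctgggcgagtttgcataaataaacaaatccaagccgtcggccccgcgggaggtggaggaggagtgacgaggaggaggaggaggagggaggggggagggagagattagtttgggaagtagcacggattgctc

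COL17A1, the transmembrane chain of hemidesmosomes, was at 6.36, 8.66 and 8.41 CPM in pTRE, 18.1, 13.8 and 13.4 in WT, 11.2, 10.5 and 9.91 in R109K, and 10.8, 11 and 11.8 in KK. The log2 fold change was 0.95 (SE 0.15, adjusted p = 0.00019) in WT, just under 2-fold. It was over 2-fold without pTRE replicate 2 or 3 or WT replicate 2 or 3, at 1.01 to 1.03. In R109K and KK it was 0.43 (adjusted p = 0.050) and 0.52 (adjusted p = 0.016).

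The 2 multiplexins went in opposite directions. COL15A1 was nearly silent in pTRE, with 6, 10 and 9 reads (0.248, 0.380 and 0.331 CPM). It was at 2.81, 1.85 and 1.88 CPM in WT, 1.07, 1.02 and 1.06 in R109K, and 2.28, 1.01 and 1.62 in KK, all above pTRE. The log2 fold changes were 2.76 (SE 0.37, adjusted p = 3.2e-05), 1.70 (SE 0.38, adjusted p = 0.0033) and 2.35 (SE 0.37, adjusted p = 0.00015), although the level stayed low. The R109K call was lost, at an adjusted p of 0.010 to 0.019, without pTRE replicate 1 or 3 or R109K replicate 1 or 3 (1.55 to 1.72).

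COL18A1, the parent chain of endostatin, was at 23.6, 24.2 and 32.2 CPM in pTRE, 13.7, 15.1 and 15.1 in WT, 15.3, 15.4 and 14.8 in R109K, and 10.4, 13.5 and 9.71 in KK. It was called in KK (-1.25, SE 0.15, adjusted p = 1.3e-05). In WT and R109K it was at -0.87 (adjusted p = 0.00033) and -0.81 (adjusted p = 0.00075), lower without overlap but under 2-fold. COL26A1, a gene of the last class, was at 1.73, 2.28 and 2.75 CPM in pTRE, 0.819, 0.803 and 0.253 in WT, 1.07, 1.02 and 1.02 in R109K, and 0.623, 0.432 and 0.395 in KK. It was called in WT (-1.90, SE 0.39, adjusted p = 0.0012) and KK (-2.20, SE 0.39, adjusted p = 0.00039), and was at -1.12 (SE 0.36, adjusted p = 0.028) in R109K, where it passed without WT replicate 3 (-1.13, adjusted p = 0.0088). COL28A1, which was not tested, had 6, 7 and 10 reads in pTRE, 12, 4 and 10 in WT, 10, 3 and 1 in R109K, and 9, 3 and 12 in KK.

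**Figure D4:**
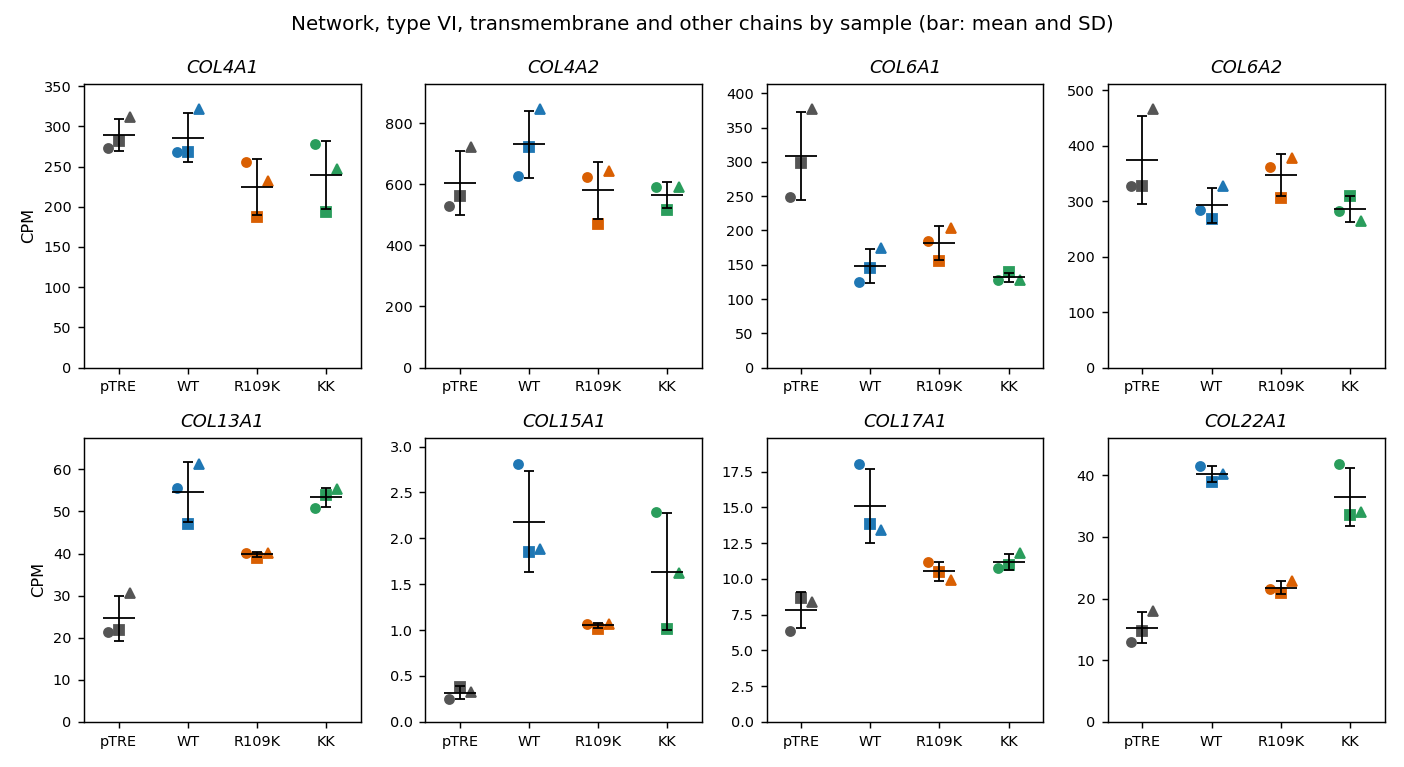
CPM (y axis, from 0) of 8 non-fibrillar chain genes in the 3 replicates of pTRE, WT, R109K and KK (x axis); points are samples, bars are mean and SD. Every E2F1 sample lies below every pTRE sample for COL6A1, and above every pTRE sample for COL13A1, COL15A1, COL17A1 and COL22A1, whereas COL4A2 overlaps in each line.

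The E2F1 lines were next compared with each other, to ask whether losing one kind of methylation site alters the response. The level of E2F1 also varied over the samples of these lines, as given above, and its part in the differences between them was not tested. In edgeR's test, 0 of 34 collagen genes were called in R109K against WT, where 0.343% of all genes were, 0 in KK against WT (0.00602% of all genes) and 0 in R109K against KK (0.0902% of all genes). At an adjusted p under 0.01 and any size, 1, 0 and 0 collagen genes passed, where 0.710%, 0.0120% and 0.132% of all genes did. At an unadjusted p under 0.05, 11, 7 and 9 of the 34 genes passed, where 22.3%, 8.51% and 12.4% of all genes did. The 11 and the 9 each include COL3A1. DESeq2 called 0, 0 and 1 gene, where it called 0.794%, 0.0301% and 0.409% of all genes. The 1 gene was COL3A1, whose level in these lines led to the set, so that count is no result about the set.

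COL22A1 was the collagen gene with the smallest adjusted p in a direct comparison. It was lower in R109K than in WT by 0.89 on the log2 scale (95% interval -1.17 to -0.61, adjusted p = 0.0037), and was the 1 gene of the 34 to pass at any size. Against KK it was lower by 0.75 in R109K in edgeR (95% interval -1.03 to -0.47, adjusted p = 0.017), and DESeq2 gave -0.75 with an adjusted p of 3.5e-05. KK and WT differed by -0.14 (95% interval -0.42 to 0.14). The difference between R109K and WT had an adjusted p of 0.019 to 0.028 without WT replicate 1 or R109K replicate 1, 2 or 3 in turn, and of 0.032 in a fit of those 6 samples alone.

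COL1A1 was higher in R109K than in WT by 0.57 on the log2 scale (95% interval 0.27 to 0.87, adjusted p = 0.038), with no overlap of the 3 samples each. That adjusted p missed the threshold in edgeR, whereas DESeq2 gave 0.57 with an adjusted p of 0.0025, under 2-fold. Against KK the difference was 0.35 (95% interval 0.05 to 0.64, adjusted p = 0.30). COL3A1 was higher in R109K than in KK by 1.39 (95% interval 0.70 to 2.09, adjusted p = 0.055). DESeq2 gave 1.40 for the same samples with an adjusted p of 0.0022. R109K replicate 3, at 2.78 CPM, was close to the highest KK sample, at 2.53 CPM, and the gene was picked for its level in these lines.

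The proteins that build and turn over collagen were examined as a list of 72 genes, of which 61 were tested. In WT, 16 were lower (3.93% of all genes) and 4 higher (7.89%). In R109K, 12 were lower (2.56%) and 2 higher (4.64%), and in KK 17 lower (3.90%) and 4 higher (7.01%). The counts of higher genes were near or below the shares of all genes. The counts by group below are parts of these totals, to be read against the same shares. The median log2 fold change was -0.47, -0.45 and -0.42. Like the collagen set, the list was drawn up with results of these samples known.

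Enzymes and chaperones of the secretory pathway came first in this route. P4HA1, a catalytic subunit of prolyl 4-hydroxylase, was at 183, 151 and 194 CPM in pTRE and 57.8 to 107 CPM in the E2F1 samples. Its log2 fold changes were -1.09, -1.09 and -1.34 (SE 0.20 in each, adjusted p = 0.00048, 0.00073 and 8.9e-05 in WT, R109K and KK). The R109K and WT values were -0.98 and -0.99 without R109K replicate 2 and WT replicate 2, under 2-fold. PLOD1, a lysyl hydroxylase, was called in WT (-1.21) and KK (-1.16), and P4HA3 was the 1 enzyme of its group to be higher, in KK (1.06). These were under 2-fold in KK for PLOD1 without pTRE replicate 3 (-1.0) and for P4HA3 without pTRE replicate 1 (0.97) or KK replicate 3 (0.96), and P4HA3 was over 2-fold in WT without pTRE replicate 3 (1.11) or WT replicate 2 (1.00), against 0.97 with all samples. PLOD1 passed in R109K without R109K replicate 3 (-1.03). Of 14 hydroxylases and glycosyltransferases, 3, 1 and 4 were lower in WT, R109K and KK.

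SERPINH1 (HSP47), the collagen-specific chaperone, was at 664, 717 and 881 CPM in pTRE and 233 to 475 CPM in the E2F1 samples. It was called in WT (-1.37, SE 0.17, adjusted p = 1.4e-05) and KK (-1.09, SE 0.17, adjusted p = 0.00011), with -0.75 (adjusted p = 0.0031) in R109K. Without pTRE replicate 3 the KK value was -0.97. CREB3L1, a membrane-bound transcription factor known to drive COL1A1 in bone, was at 45.2, 43.8 and 68.2 CPM in pTRE and 14.7 to 22.2 CPM in the E2F1 samples. Its log2 fold changes were -1.65, -1.41 and -1.69 (SE 0.18 in each, adjusted p at most 3.3e-05). PCOLCE, which helps to cut off the C-terminal propeptide, changed by -1.81, -1.27 and -1.48 (SE 0.21 in each, adjusted p at most 0.00034). Of 9 genes of folding and export, with CREB3L1 counted among them, 2, 1 and 2 were lower in WT, R109K and KK. Of 8 genes of propeptide processing, 1 was lower in each line.

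Of the 5 lysyl oxidases, which cross-link fibrils, LOXL1 (-1.33, -1.45 and -1.18) and LOXL4 (-1.53, -1.51 and -1.52) were called lower in WT, R109K and KK. LOX, the founding member, was at -0.49, -0.34 and -0.65 and was not called. LUM, a small proteoglycan of fibrils, was at 4.75, 2.89 and 5.51 CPM in pTRE and at most 1.46 CPM in the E2F1 samples, with log2 fold changes of -2.75, -3.77 and -2.19. Of the 8 fibril-associated proteins, 2, 1 and 2 were lower and none higher in WT, R109K and KK.

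Of 9 collagen receptors, 3 were higher and 3 lower in WT and in KK, and 2 were higher and 2 lower in R109K. ITGA11, an integrin chain that binds fibrillar collagen, was at 0.496, 0.646 and 0.551 CPM in pTRE and 1.92 to 3.63 CPM in the E2F1 samples, with log2 fold changes of 2.10, 1.84 and 2.34 (SE 0.29 in each, adjusted p at most 0.00024). ITGA2, another collagen-binding chain, went from 37.6 to 43.8 CPM in pTRE to 83.1 to 195 CPM (1.93, 1.54 and 1.93, SE 0.23 in each). GP6 was lower (-1.68, -2.21 and -2.26), as was MRC2, an uptake receptor for collagen fragments (-1.20, -1.18 and -1.18).

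Of 8 genes of collagen degradation, 3, 4 and 3 were lower in WT, R109K and KK, and 1 was higher, in WT. MMP2, a gelatinase, was at 207, 200 and 227 CPM in pTRE and 61.3 to 79.8 CPM in the E2F1 samples (-1.63, -1.52 and -1.58, SE 0.12 in each, adjusted p at most 5.8e-07). MMP9 was called in each line (-1.44, -1.41 and -1.36), but was lost in each without pTRE replicate 3 (adjusted p = 0.010 in WT, 0.016 in R109K and 0.015 in KK), in R109K without R109K replicate 1 (0.014) and in KK without KK replicate 1 (0.011). Their inhibitor TIMP3, which is counted among the lower genes of this group, was also lower (-1.70, -1.32 and -1.80). CTSK, the cysteine protease of bone resorption, was called higher in WT (1.04, adjusted p = 0.0037), and not without WT replicate 2 (0.74), pTRE replicate 2 (1.02) or pTRE replicate 3 (0.93).

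**Figure D5:**
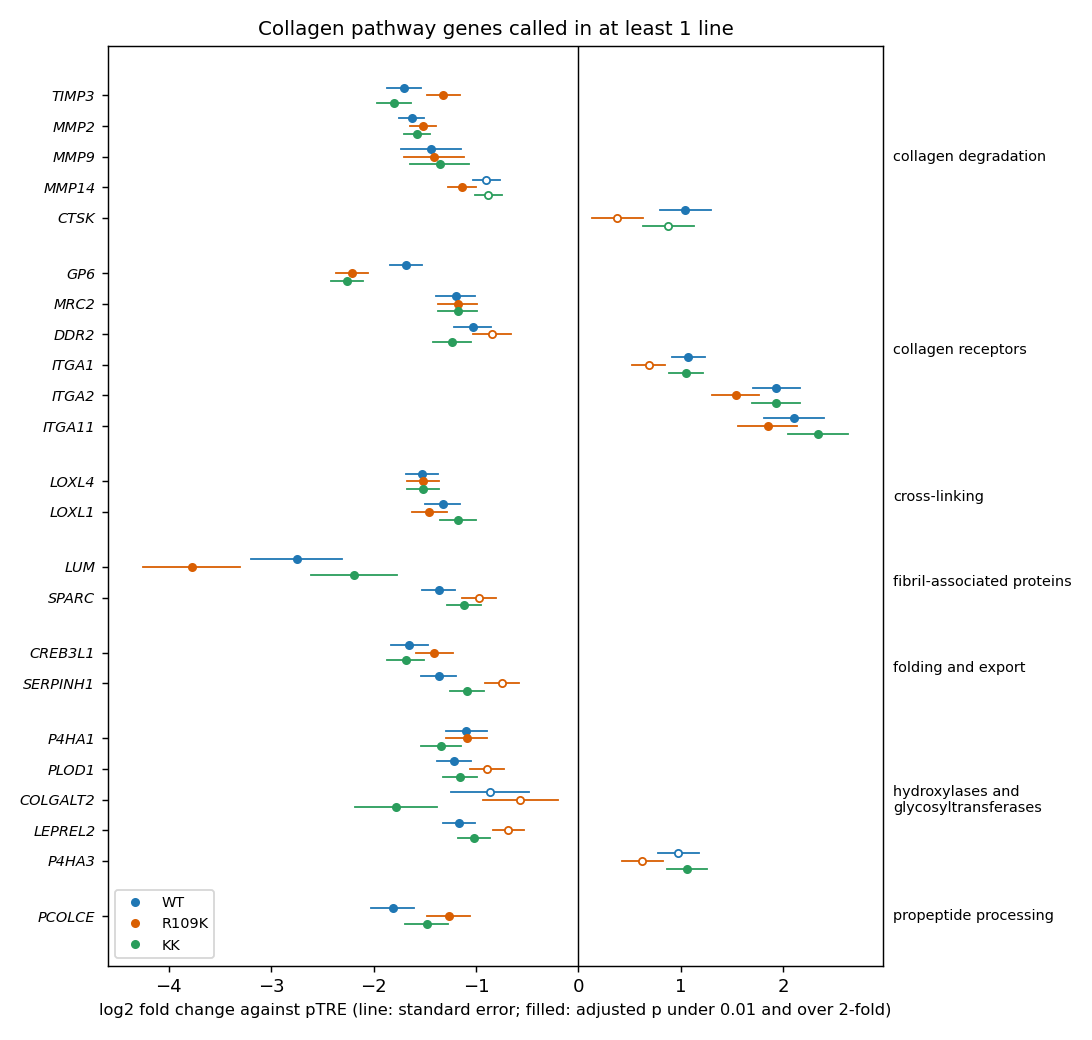
Log2 fold change against pTRE (x axis) of the genes of collagen synthesis, binding and breakdown that were called in at least 1 line (y axis, by list), in WT, R109K and KK, with standard errors; filled points were called. Most lie below 0, down to -3.77 for LUM in R109K, and ITGA1, ITGA2, ITGA11, CTSK and P4HA3 lie above it.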

How the data were processed

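Total RNA of 12 samples (4 lines, 3 biological replicates each) was enriched for poly(A) mRNA and made into directional libraries. The authors trimmed reads with Trim Galore 0.4.3, aligned them to hg19 (GRCh37) with STAR 2.5.1 allowing 2 mismatches, and deposited raw counts per gene, per their methods as provided by the aligner. The annotation and the strand setting of the counting are not given in the sources used here, so reads of overlapping genes on opposite strands may not be told apart. The 5 summary lines of each file, 34.3% to 68.8% of reads, were left out.

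Counts were fitted with edgeR 4.0.16 in R 4.3.3 (TMM, filterByExpr, quasi-likelihood test) in 1 model of the 12 samples with 6 contrasts, without a replicate block, and adjusted by Benjamini-Hochberg over 16625 genes. The main alternative was DESeq2 1.42.0, which the authors used in version 1.16.1. SE is the log2 fold change divided by the square root of F. CPM used TMM library sizes, and RPKM the union exon length of GENCODE in GRCh37. Chain ratios, with 0.5 added to each count, were compared by two-sided exact permutation tests. Scripts were tested on simulated data. Replicate libraries of a line differed by more than sampling noise (chi-square per degree of freedom of at least 8.85).

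The members and lists were chosen with earlier results of these data known. Values are given per sample for COL3A1, for every collagen gene called in any of the 6 contrasts and for the 2 highest per length in each class; other members are given by range or counts. Pathway genes named are from the called genes of the list, except LOX, which was not called, and some (among them LOX, SERPINH1, PLOD1, P4HA3 and CTSK) were chosen after their values were seen. Depth sets the precision: a member with 10 reads carries a large counting error.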

Additional observations from a re-analysis of the deposited data

Results flagged for a closer look

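COL22A1, compared between R109K and WT, was picked up by the test of the difference between the 2 E2F1 lines themselves, at a log2 fold change of -0.89 (SE 0.13, adjusted p = 0.0037 in edgeR's quasi-likelihood test). The 3 samples were at 21.5, 20.9 and 22.9 CPM in R109K and at 41.5, 38.9 and 40.3 CPM in WT, so it was lower in 3 of 3 samples. DESeq2 gave -0.89 with an adjusted p of 1.6e-07. The change was under 2-fold, so the gene was not called, and the adjusted p in edgeR reached 0.028 as single libraries were left out.

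THBS1, the matrix glycoprotein thrombospondin-1, differed in the same kind of test between R109K and KK, at -1.0 (adjusted p = 0.0045). It was at 254, 217 and 220 CPM in R109K, 482, 389 and 514 in KK, 329, 335 and 339 in WT, and 299, 371 and 278 in pTRE. The value lies on the 2-fold threshold, and its call was lost under many settings. Over the libraries left out in turn it ran from -1.11 to -0.92, and the adjusted p reached 0.056 without R109K replicate 3. It was 0.033 without R109K replicate 2 or KK replicate 3, 0.031 without KK replicate 1, 0.020 without R109K replicate 1, and 0.011 and 0.010 without pTRE replicates 1 and 3. Without pTRE replicate 2 it was 0.0064, with the value just under 2-fold.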

How the results depend on the processing

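Of 1440 recomputed log2 fold changes of collagen genes named above, 1390 kept their direction and their side of the threshold, 24 lost a call, 13 gained one and 13 changed sign. The 1440 include fits without a library of neither line compared, where the value can hardly move, and genes far from the threshold. The share kept is thus no measure of how stable a call is. COL3A1 against pTRE, which had no test, was counted as kept when its value moved by less than the pooled SD of its log2 levels. All of the sign changes were in values near 0 that were called in no fit, and the cause was not tested. COL4A1 in WT ran from -0.12 to 0.038 as single libraries were left out, and was 0.0037 when only the 6 samples compared were fitted. COL7A1 ran from -0.28 to 0.078 in WT, from -0.14 to 0.22 in R109K and from -0.33 to 0.024 in KK. COL4A2 ran from -0.15 to 0.090 in R109K and from -0.19 to 0.051 in KK, and COL6A2 from -0.19 to 0.085 in R109K. The difference in the COL5A1 to COL5A2 ratio ran from -0.050 to 0.30 in WT, from -0.21 to 0.13 in R109K and from -0.052 to 0.30 in KK, and was 0.13 in R109K by medians.

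With change tested against 2-fold (glmTreat), the collagen genes called were 5 in WT, 4 in R109K and 5 in KK, where 3.56%, 1.87% and 3.41% of all genes were, a stricter demand by construction. With no demand on size, 16 passed in R109K against pTRE (17.3% of all genes) and 1 in R109K against WT (0.710%). DESeq2 called 1 in R109K against KK (0.409%), which was COL3A1, the gene that led to the set. Leaving out each library in turn gave 10 to 15 calls in WT, 6 to 10 in R109K, 12 to 17 in KK and 0 in each direct comparison, where the share of all genes called ran from 9.87% to 13.7%, 5.76% to 7.76% and 9.5% to 11.8% in the 3 lines and was at most 0.929% in a direct comparison.

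Replicate numbers are shared by the 4 lines, and whether they mark a batch is not stated. Deviations of same-numbered samples had a mean correlation of 0.0436 over 18 pairs, from -0.295 to 0.470. Of 12 samples, 7 were closest to one of their own number. By chi-square per degree of freedom, replicate 2 lay furthest from the others in WT (55.9 and 56.6), R109K (30.8 and 21.8) and KK (50.6 and 36.1). Replicates 1 and 3 of these lines gave 13.8, 10.2 and 8.85. In pTRE replicates 1 and 3 differed most (23.4). A fit with a replicate block called 11, 8 and 14 collagen genes in WT, R109K and KK, where it called 11.4%, 7.03% and 10.7% of all genes. Under it, COL6A6 in WT had an adjusted p of 0.017 in edgeR, and the log2 fold change of COL7A1 in R109K was 0.0010. Of the alternatives for the pathway list, which were added after the data were seen, 37 of 1254 values lost a call and none changed sign. Depth limits the members with few reads, among them COL2A1, COL6A6, COL15A1 and COL26A1, and the lower depth of WT replicate 2 widens its counting error.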
